A study of Homo sapiens with 12 samples.

Results

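The 33 genes described here encode the core of the PI3K, AKT and mTOR pathway, from the lipid kinase subunits to the kinases and repressors that mTOR complex 1 phosphorylates. They were taken by symbol from a table of 26475 genes, as a list chosen with earlier results of these data known. Of them, 32 had enough counts to be tested. The RNA came from SUM159, an established human triple-negative breast cancer line, of which 1500000 cells were injected into 8-week-old female NOD scid gamma mice, a strain without T, B and NK cells that keeps defective myeloid cells. Hosts stayed on standard diet (CTR) or received a fasting-mimicking diet (FMD), a low-calorie regimen, on 4 consecutive days of each week. Staining for human CD44 and CD24 separated the tumour cells into a CD44+CD24-Low (LO) and a CD24-High (HI) fraction, which gave 4 groups of 3 libraries, CTR_LO, CTR_HI, FMD_LO and FMD_HI. All groups carry the same line, and no gene was engineered. The labels do not say whether replicates came from separate mice, so the p-values measure the spread between these samples, which may be technical.

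Growth factor receptors recruit class I PI3K, a dimer of a catalytic and a regulatory subunit, which phosphorylates a membrane phosphoinositide to PIP3. PIP3 draws PDPK1 and AKT to the membrane, where AKT is activated. AKT inhibits the TSC complex, which releases RHEB to activate mTOR complex 1, while amino acids bring the same complex to the lysosome through the Rag GTPases and the Ragulator. Insulin-type growth factors and nutrients are the pathway's main inputs, and much of its control is by phosphorylation, which RNA counts do not measure.

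FMD_LO was set off from the other 9 libraries. Its totals were 17736610 to 18579816 counts, against at least 29049144 elsewhere, and on the first principal component, 57.4% of the variance, its libraries lay at 79.46 to 88.93 and the others at -46.09 to 2.35. Of the leukocyte marker list, 12 of the 13 genes tested rose in FMD_LO over CTR_LO, 2 of which, CD53 and CD37, passed the count filter through their FMD_LO libraries alone, so that their calls were close to fixed. Its 15 genes summed to 764 to 804 CPM, counts scaled to the effective library size, in FMD_LO, against 127 to 139 in CTR_LO, 107 to 170 in CTR_HI and 131 to 156 in FMD_HI. In CTR_LO 8 of the 15 had a mean above 1 CPM. SPI1, PTPRC and CSF1R were among those that rose, LCP1 made most of the sum, and TYROBP was at 0 counts in all FMD_LO libraries. The fibroblast list, all 12 genes of which CTR_LO also expressed above 1 CPM, summed to 47100 to 69700 CPM in FMD_LO and 14400 to 35700 in the other groups, and 5 of its genes rose. The endothelial sum was 49.3 to 102 CPM in FMD_LO and 29 to 41.6 elsewhere, with 2 genes called, of which TEK passed the filter through FMD_LO alone, and the neural and glial sum 9.82 to 13.1 CPM against 3.45 to 11.4, with none called. The basal and SUM159 list, with CD44, VIM and EGFR, summed to 10300 to 11300 CPM in FMD_LO and 11000 to 14700 elsewhere, and KRT5 and KRT18 fell. CD24, the gene behind the sort, ran from 1.03 to 3.27 CPM over all libraries and its RNA was not called between the sorted fractions of either diet. The part of other cells in the results below was not tested. With each library thinned to the smallest total, the same 7 members were called between diets in CD24-low cells as at full depth. In bulk RNA, more cells of a type and more RNA per cell cannot be told apart.

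**Figure D1:**
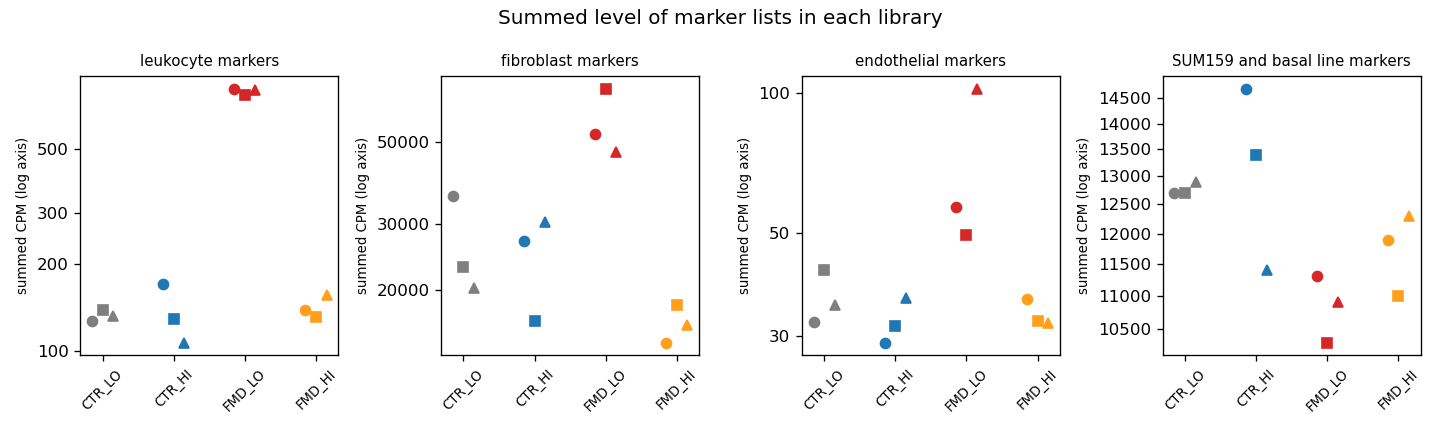
Summed CPM (log axis) of 4 marker lists in each library, by group; marker shapes are replicate numbers. The leukocyte sum is 764 to 804 in FMD_LO and at most 170 in the other 9 libraries, and the SUM159 and basal sum is 10300 to 11300 in FMD_LO and 11000 to 14700 elsewhere.

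Short stretches before the RefSeq start (GRCh38.p14) are shown for called members whose promoters were in the RefSeq table, 3 with the smallest p-values between diets in CD24-low cells and, chosen after the matches were seen, RRAGC. In the lines for PIK3CG and INPP5D, at chr7:106865276-106865305 and chr2:233060268-233060297, both plus strand, capitals mark GAGGAAGT, a letter string of the PU.1 type, on either strand. In the line for RRAGC, at chr1:38859867-38859896 on the minus strand, capitals mark CACGTG, the E-box core of MYC- and TFEB-type factors. The line for RPS6KB1, at chr17:59892946-59893045 on the plus strand, holds no match and lies between the annotated exons of that gene and of TUBD1, which runs the other way.
PIK3CG: gtaactgcaacACTTCCTCtgcatctggat
INPP5D: gtttctgtaatGAGGAAGTtctccgcagct
RRAGC: aggtgattccggCACGTGacggggcaccac
RPS6KB1: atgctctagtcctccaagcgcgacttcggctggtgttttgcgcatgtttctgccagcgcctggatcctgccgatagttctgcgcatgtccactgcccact

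Over the 250 bases before the start, 27 of the 33 members had an entry in the table, and both strands were searched. CACGTG stood in 4 of them, TSC2, RRAGB, RRAGC and LAMTOR1, and in 6.49% of all 27305 promoters. GAGGAAGT, added to the search after these sequences had been read, stood in PIK3CG, 192 bases before the start, in INPP5D, 63 bases before it, and in 2.13% of all promoters. GTAAACA, a forkhead core, stood in PIK3CA only and in 2.98% of all promoters. TGACGTCA, the full cyclic AMP response element, was in none of the 27 windows and in 1.77% of all. The GAGGAAGT stretches overlap exons of longer GENCODE 29 transcripts of the same genes. They thus mark a position before the RefSeq start searched and not before every start. For PIK3CG, most of the stretch lies inside the RefSeq span of the gene, which begins at chr7:106865282. The matches are letters in a window and are described as that.

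The first comparison asked how the diet changed the pathway in CD24-low cells. Against CTR_LO, 7 of the 32 members tested rose in FMD_LO and none fell, where 12% of all 15461 genes tested rose and 4.33% fell. The 7 were the PI3K catalytic subunits PIK3CA and PIK3CG, the lipid phosphatase INPP5D, the kinase AKT1, the Rag GTPases RRAGC and RRAGD, and the S6 kinase RPS6KB1. Their fold changes ran from 1.34 for AKT1 to 18.7 for PIK3CG. PIK3CG passed the count filter through its FMD_LO libraries alone, so its place in the counts of this paragraph was close to fixed. The median log2 difference over the 32 was 0.15, against -0.03 over all genes, and 23 members lay above 0. At an unadjusted p below 0.05 there were 16 of the 32 members, and 31% of all genes. In 8 of the 32 every FMD_LO library lay above all other 9 libraries, where 13.1% of all genes did so, and these were the 7 and LAMTOR1. PIK3R2 alone lay below all other 9, where 5.00% of all genes did. A call means an adjusted p below 0.05 over all genes tested.

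**Figure D2:**
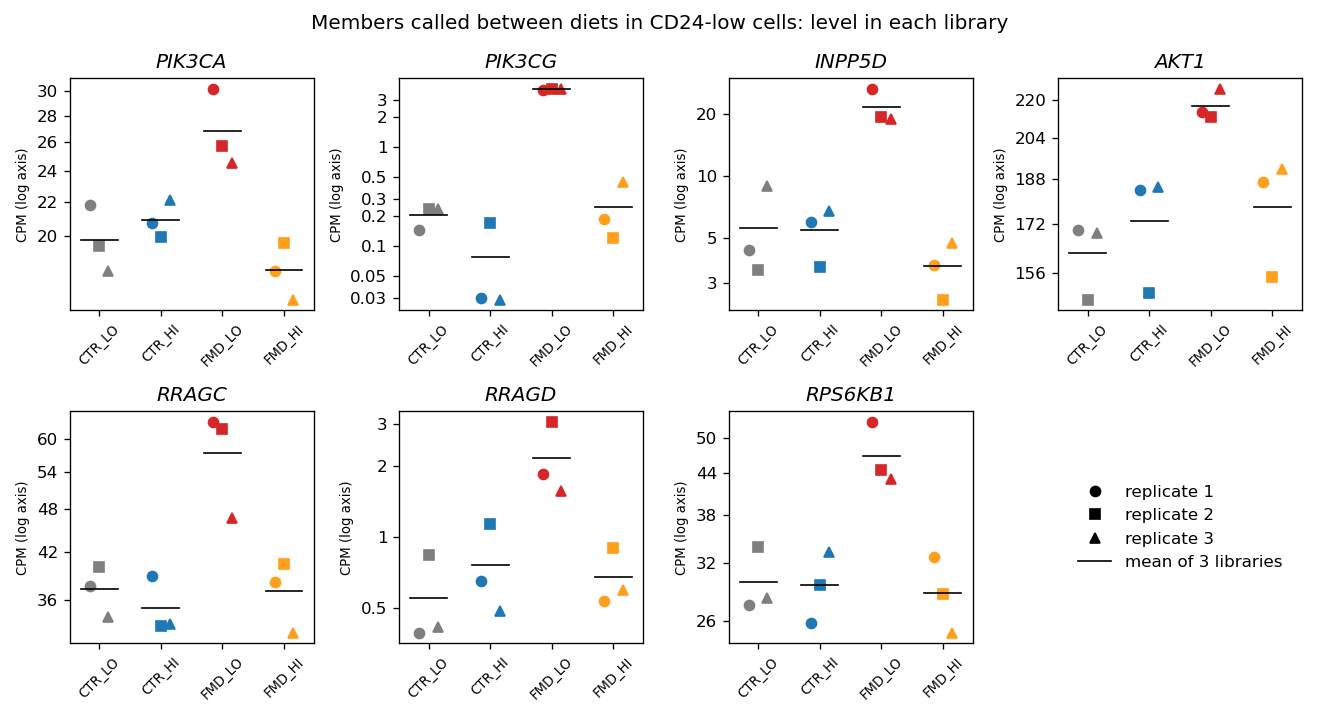
CPM (log axis) of the 7 called members in each of the 12 libraries; marker shapes are replicate numbers and lines the mean of 3 libraries. In each panel the 3 FMD_LO libraries lie above the other 9, by the widest margin in PIK3CG, where they read 3.8 to 3.89 CPM and no other library exceeds 0.442.

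Among the catalytic subunits, PIK3CG, the p110-gamma subunit best known from blood cells, was close to undetected outside FMD_LO. It read 3.8, 3.89 and 3.85 CPM in FMD_LO, 0.145, 0.235 and 0.238 in CTR_LO, 0.0297, 0.172 and 0.0286 in CTR_HI, and 0.189, 0.120 and 0.442 in FMD_HI. In counts, FMD_LO held 64, 66 and 71 reads and CTR_LO 7, 7 and 8. The FMD_LO libraries agreed within a narrow range and were far above the rest. The log2 difference from CTR_LO was 4.23 ± 0.50 (SE), with adjusted p = 9.89e-05. PIK3CG entered the test through its FMD_LO libraries alone, so its call there was close to fixed. The gene lies at chr7:106865282-106908980 (RefSeq, GRCh38.p14).

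PIK3CA, the p110-alpha subunit often mutated in breast cancer (chr3:179148126-179240093), read 30.2, 25.7 and 24.5 CPM in FMD_LO and 21.8, 19.4 and 18.1 in CTR_LO. It read 20.7, 19.9 and 22.1 CPM in CTR_HI and 18.1, 19.6 and 16.7 in FMD_HI, so FMD_LO did not overlap any group. The rise over CTR_LO was 1.35-fold, a log2 difference of 0.44 ± 0.13 (SE) with adjusted p = 0.0297. This call was lost without FMD_LO replicate 1 (adjusted p = 0.126), without FMD_LO replicate 2 (0.0556), without CTR_LO replicate 3 (0.110) and without CTR_LO replicate 2 (0.0816). It was also lost without a count filter (0.0635) and with only the compared groups fitted (0.0561).

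The other 2 catalytic subunits were not called. PIK3CB, p110-beta, was among the steadiest members, with group means of 18.6 to 19.9 CPM and a log2 difference of 0.02 ± 0.13 (SE). PIK3CD, p110-delta, another subunit typical of leukocytes, read 21.6, 22.1 and 21.4 CPM in FMD_LO and 8.87, 21.1 and 16.4 in CTR_LO. The low library was replicate 1, and in CTR_HI replicate 1 was low too, at 8.89 CPM against 25.4 and 19.8 for the others. The difference of 0.49 ± 0.35 (SE) had adjusted p = 0.366, so a PIK3CD difference could not be separated from this spread.

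**Figure D3:**
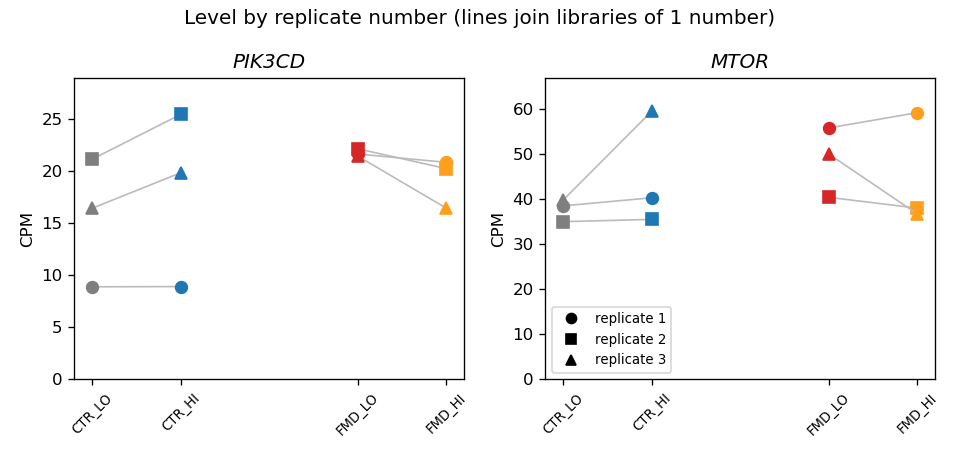
CPM of PIK3CD and MTOR in each library, with grey lines joining the CD24-low and CD24-high libraries that share a replicate number and diet. PIK3CD is at 8.87 and 8.89 in replicate 1 of the control diet and at 16.4 or more in the other 10 libraries, and MTOR is at 55.8 and 59.2 in replicate 1 of the fasting-mimicking diet.

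Per kilobase of exon, which allows genes to be compared, PIK3CB made the largest part of catalytic subunit RNA in CTR_LO, 40.3% ± 5.66 (SD, n = 3), followed by PIK3CD with 32.6% ± 10.3 and PIK3CA with 26.6% ± 4.95. The PIK3CD libraries spanned 21.3% to 41.3% and overlapped both neighbours, while PIK3CB (34.7% to 46.0%) and PIK3CA (23.5% to 32.3%) did not overlap each other. PIK3CG made 0.451% ± 0.0842 in CTR_LO and 6.48% ± 0.363 in FMD_LO, and it stayed the least abundant subunit there. The share of PIK3CB was 30.5% to 31.2% in FMD_LO and 34.7% to 46.0% in CTR_LO, while CTR_HI, at 30.7% to 49.5%, overlapped FMD_LO. With 3 libraries against 3, an exact two-sided test of such a share cannot go below p = 0.1.

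None of the regulatory subunits was called, and they lay on both sides of 0. PIK3R1, the p85-alpha subunit that stabilises the catalytic partner, read 77.7, 94.8 and 110 CPM in FMD_LO and 142, 104 and 123 in CTR_LO, a difference of -0.39 ± 0.19 (SE, log2) with adjusted p = 0.177. PIK3R2, p85-beta, read 124, 92.4 and 102 CPM in FMD_LO and 140, 129 and 141 in CTR_LO, and its difference was -0.36 ± 0.16 with adjusted p = 0.129. PIK3R3, p55-gamma, read 78.1, 81.1 and 48.3 CPM against 37.7, 53.0 and 44.3, a difference of 0.62 ± 0.22 with adjusted p = 0.0735. Replicate 3 of FMD_LO lay within the control range, and without it PIK3R3 was called (adjusted p = 0.0130). Exons of PIK3R2 overlap another annotated gene over 97.1% of their length, and that gene was no row of the counts, so the PIK3R2 values may hold its reads. Those of PIK3R3 overlap a different such gene over 21.7% of their length, and the PIK3R3 values may hold reads of that gene.

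The 2 phosphatases went apart. INPP5D, SHIP1, which removes the 5-phosphate of PIP3 and is known mainly from blood cells (chr2:233060342-233207903), read 26.5, 19.3 and 19.0 CPM in FMD_LO and 4.37, 3.49 and 8.94 in CTR_LO. It read 5.95, 3.59 and 6.73 CPM in CTR_HI and 3.68, 2.49 and 4.73 in FMD_HI. Every FMD_LO library was at least as high as 19.0 and no other passed 8.94. The rise was 3.86-fold, a log2 difference of 1.95 ± 0.35 (SE) with adjusted p = 0.00269, and it stayed called in all 19 alternative fits. INPP4B, the 4-phosphatase that acts on the next lipid down, read 18, 13.8 and 12.3 CPM in FMD_LO and 24.4, 16.7 and 22.2 in CTR_LO. Its difference of -0.52 ± 0.20 (SE) had adjusted p = 0.0870, and it was called lower without CTR_LO replicate 2 (0.0342) or without FMD_LO replicate 1 (0.0482).

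Of the kinases recruited to the membrane, AKT1 (chr14:104769349-104795748) read 215, 213 and 225 CPM in FMD_LO and 170, 148 and 169 in CTR_LO. It read 184, 150 and 185 CPM in CTR_HI and 187, 155 and 192 in FMD_HI. FMD_LO lay above all of them, by a small step. The rise was 1.34-fold, a log2 difference of 0.42 ± 0.12 (SE) with adjusted p = 0.0300. The call was lost when any 1 of the 6 CTR_LO and FMD_LO libraries was left out, with adjusted p from 0.0679 without CTR_LO replicate 3 to 0.128 without CTR_LO replicate 2, and without a count filter (0.0616). AKT1 made 71.4% ± 1.52 (SD, n = 3) of AKT1 and AKT2 RNA per kilobase in CTR_LO and 72.6% ± 1.88 in FMD_LO, so the balance between them moved by less than its spread.

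AKT2, the isoform tied to insulin-stimulated glucose uptake, read 115, 95.3 and 104 CPM in FMD_LO and 80.0, 81.1 and 87.1 in CTR_LO. These did not overlap, but the difference of 0.34 ± 0.12 (SE, log2) missed the threshold with adjusted p = 0.0605. It was called with DESeq2 (0.0226), with DESeq2's size factors in edgeR (0.0459), with a replicate block (0.0435) and without CTR_HI replicate 3 (0.0371). PDPK1, the kinase that phosphorylates the activation loop of AKT, read 41.7, 30.8 and 26.4 CPM against 22.8, 26.6 and 24.2, with adjusted p = 0.136.

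SGK1, a kinase related to AKT and activated through mTOR complex 2, had its lower values under the diet in both fractions. It read 184, 162 and 150 CPM in FMD_LO against 239, 245 and 184 in CTR_LO, and 132, 170 and 149 in FMD_HI against 242, 250 and 174 in CTR_HI. The log2 differences were -0.43 ± 0.16 (SE), adjusted p = 0.0876, and -0.56 ± 0.16, adjusted p = 0.5, and neither was called. A replicate block brought the first to adjusted p = 0.0463. SGK3 was not tested, having 20 counts over all 12 libraries, of which FMD_LO held 0, CTR_LO 1, CTR_HI 8 and FMD_HI 11. The files count a read-through transcript over SGK3 as another gene with 2 counts, and reads shared by both may be in neither, so the SGK3 level is uncertain.

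The TSC complex and RHEB, the link from AKT to mTOR complex 1, were nearly level in all 4 groups. TSC1 had group means of 38.6 to 40.0 CPM and TSC2, its partner with the GTPase-activating domain, of 53.0 to 60.5. RHEB, the small GTPase that the complex switches off, had means of 60.4 to 68.2 CPM. Between diets in CD24-low cells the log2 differences were 0.02 ± 0.14, -0.01 ± 0.15 and 0.14 ± 0.11 (SE).

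None of the 6 genes of the mTOR complexes and their inhibitors was called. MTOR, the shared kinase, read 55.8, 40.4 and 50.0 CPM in FMD_LO and 38.5, 35 and 39.8 in CTR_LO, a log2 difference of 0.37 ± 0.22 (SE) with adjusted p = 0.265. Its highest values were spread over groups, with 59.5 CPM in CTR_HI replicate 3 and 59.2 in FMD_HI replicate 1. RICTOR, which defines mTOR complex 2, read 49.4, 36 and 34 CPM in FMD_LO and 26.8, 32.6 and 26.4 in CTR_LO, a difference of 0.48 ± 0.20 with adjusted p = 0.123. RPTOR, which defines mTOR complex 1 and binds its substrates, differed by -0.10 ± 0.15.

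As a ratio within a library, the 2 defining subunits set FMD_LO apart by a narrow gap, though neither gene was called. How often a share separates FMD_LO in this way was not tested. RICTOR made 43% to 48% of RICTOR and RPTOR RNA per kilobase in FMD_LO and 31.2% to 41.3% in the other 9 libraries, with means of 46.0% ± 2.64 (SD, n = 3) and, in CTR_LO, 36.7% ± 4.79. MLST8, a subunit of both complexes, differed by -0.17 ± 0.13 (SE, log2), and AKT1S1, the inhibitor PRAS40 that AKT phosphorylates, by 0.08 ± 0.11. DEPTOR, an inhibitor of both complexes, was low and variable, at 2.67, 3.59 and 4.07 CPM in FMD_LO and 5.99, 2.12 and 3.18 in CTR_LO, with a difference of -0.14 ± 0.44.

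On the nutrient arm, RRAGC and RRAGD encode the 2 alternative partners of RRAGA or RRAGB in the Rag dimer. RRAGC (chr1:38838198-38859772) read 63.3, 62.0 and 46.7 CPM in FMD_LO and 37.7, 40.0 and 34.2 in CTR_LO. It read 38.9, 33.2 and 33.4 CPM in CTR_HI and 38.2, 40.4 and 32.5 in FMD_HI, and the lowest FMD_LO library was above the highest of these. The rise was 1.54-fold, a log2 difference of 0.62 ± 0.14 (SE) with adjusted p = 0.00827. Another annotated gene, no row of the counts, overlaps 43.3% of the RRAGC exons on the same strand, and its reads may be counted with RRAGC.

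RRAGD, a target of the lysosomal TFEB and MITF factors (chr6:89364616-89412273), read 1.84, 3.06 and 1.57 CPM in FMD_LO and 0.394, 0.840 and 0.416 in CTR_LO. It read 0.654, 1.14 and 0.487 CPM in CTR_HI and 0.535, 0.900 and 0.598 in FMD_HI. The rise was 3.97-fold, 1.99 ± 0.44 (SE, log2) with adjusted p = 0.00715, from 19, 25 and 14 counts in CTR_LO to 31, 52 and 29 in FMD_LO. The calls for both genes held in all 19 alternative fits. RRAGD remained a small part of the pair, 0.803% ± 0.310 (SD, n = 3) of RRAGC and RRAGD RNA per kilobase in CTR_LO and 2.04% ± 0.568 in FMD_LO.

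RRAGB, the less abundant partner on the other side of the dimer, did not follow. It read 11.3, 12 and 11.2 CPM in FMD_LO and 11.7, 9.88 and 9.56 in CTR_LO, a log2 difference of 0.14 ± 0.14 (SE). Of the RNA of the 4 Rag GTPases per kilobase, RRAGB made 8.90% to 9.47% in FMD_LO and 12.7% to 19.8% in the other 9 libraries. Here too, how often a share lies apart in this way was not tested. RRAGA, which is no member, rose 2.12-fold and made 53.6% ± 6.86 (SD, n = 3) in FMD_LO against 44.1% ± 0.898 in CTR_LO. The lowest RRAGA share in FMD_LO, 48.3%, lay below the highest in FMD_HI, 48.5%.

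The Ragulator genes, which anchor the Rag dimer to the lysosome, were not called. LAMTOR1, its membrane anchor, read 93.9, 88.1 and 93.9 CPM in FMD_LO and 82.1, 71.0 and 76.3 in CTR_LO, above every other library of the study, where the highest was 84.8. Its difference of 0.27 ± 0.10 (SE, log2) had adjusted p = 0.0894, and DESeq2 called it (0.0324). LAMTOR2 differed by 0.14 ± 0.16 and LAMTOR3 by -0.14 ± 0.11.

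Of the substrates of mTOR complex 1, RPS6KB1, the S6 kinase S6K1 that drives ribosomal protein S6 phosphorylation (chr17:59893121-59950574), read 52.9, 44.6 and 43.1 CPM in FMD_LO and 27.5, 33.8 and 28.2 in CTR_LO. It read 25.8, 29.5 and 33.2 CPM in CTR_HI and 32.7, 28.6 and 24.9 in FMD_HI. No library outside FMD_LO passed 33.8. The rise was 1.57-fold, 0.65 ± 0.14 (SE, log2) with adjusted p = 0.00709, and it held in all 19 alternative fits. RPS6KB2, S6K2, stayed at group means of 37.7 to 39.5 CPM, so RPS6KB1 made 19.7% ± 2.96 (SD, n = 3) of S6 kinase RNA per kilobase in CTR_LO and 27.4% ± 4.65 in FMD_LO.

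EIF4EBP1, the translation repressor 4E-BP1, read 50.6, 57.0 and 58.4 CPM in FMD_LO and 38.2, 44.7 and 45.1 in CTR_LO, which did not overlap, but the difference of 0.37 ± 0.17 (SE, log2) had adjusted p = 0.150. EIF4EBP2, its relative, differed by 0.16 ± 0.14 with adjusted p = 0.463.

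**Figure D4:**
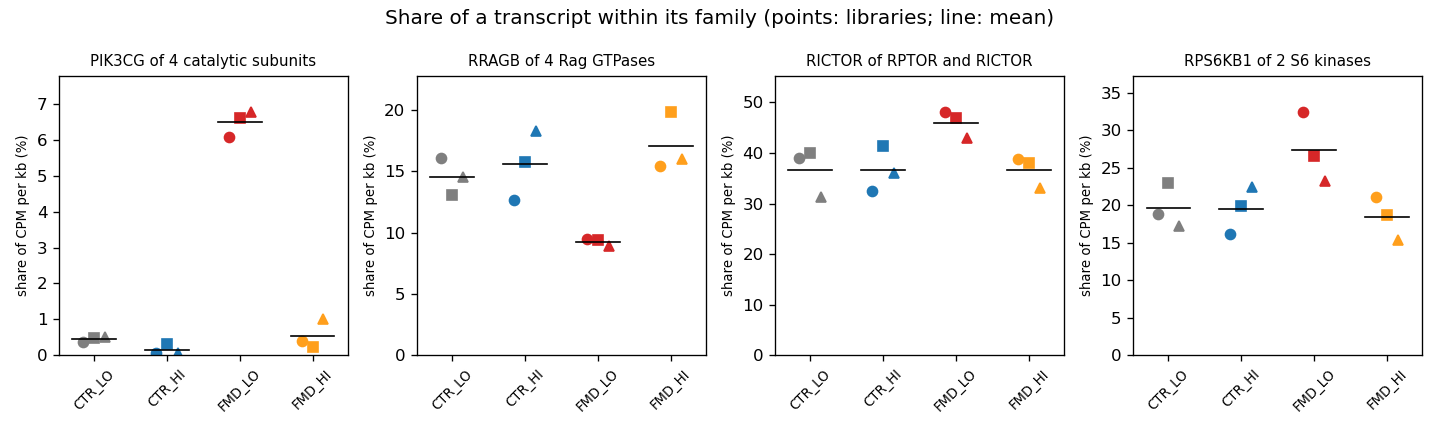
Share of CPM per kilobase within a family, in percent, for PIK3CG, RRAGB, RICTOR and RPS6KB1 in each library; marker shapes are replicate numbers and lines the means of 3. FMD_LO lies apart from the other 9 libraries in each panel, with RRAGB at 8.90% to 9.47% and RICTOR at 43% to 48%. For RPS6KB1 the gap is very narrow. The panels are a selection from the shares computed. Those of PIK3R3, AKT1, RRAGA, RRAGC and EIF4EBP1, among others not shown, overlap between FMD_LO and other libraries. How often a share separates FMD_LO in this way was not tested.

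The second comparison asked the same of CD24-high cells, FMD_HI against CTR_HI. No member was called there by edgeR, nor was any other gene (0.0% of those tested). At an unadjusted p below 0.05 there were 2 members, PIK3CG and SGK1, where 6.74% of all genes were, and the smallest adjusted p was 0.5, that of SGK1. DESeq2 called none of the members either, and 0.497% of the genes it tested. The median log2 difference over the members was -0.01, 16 of 32 lay above 0, and the 25th and 75th percentiles were -0.07 and 0.08. For 6 of the 7 genes that rose in CD24-low cells the values were -0.20 ± 0.12 (SE) for PIK3CA, -0.58 ± 0.36 for INPP5D, 0.04 ± 0.12 for AKT1, 0.07 ± 0.14 for RRAGC, -0.15 ± 0.44 for RRAGD and -0.04 ± 0.14 for RPS6KB1. PIK3CG, with 1.76 ± 0.67 (adjusted p = 0.636), was above 0 as in CD24-low cells, on 1, 5 and 1 counts in CTR_HI and 6, 4 and 17 in FMD_HI.

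**Figure D5:**
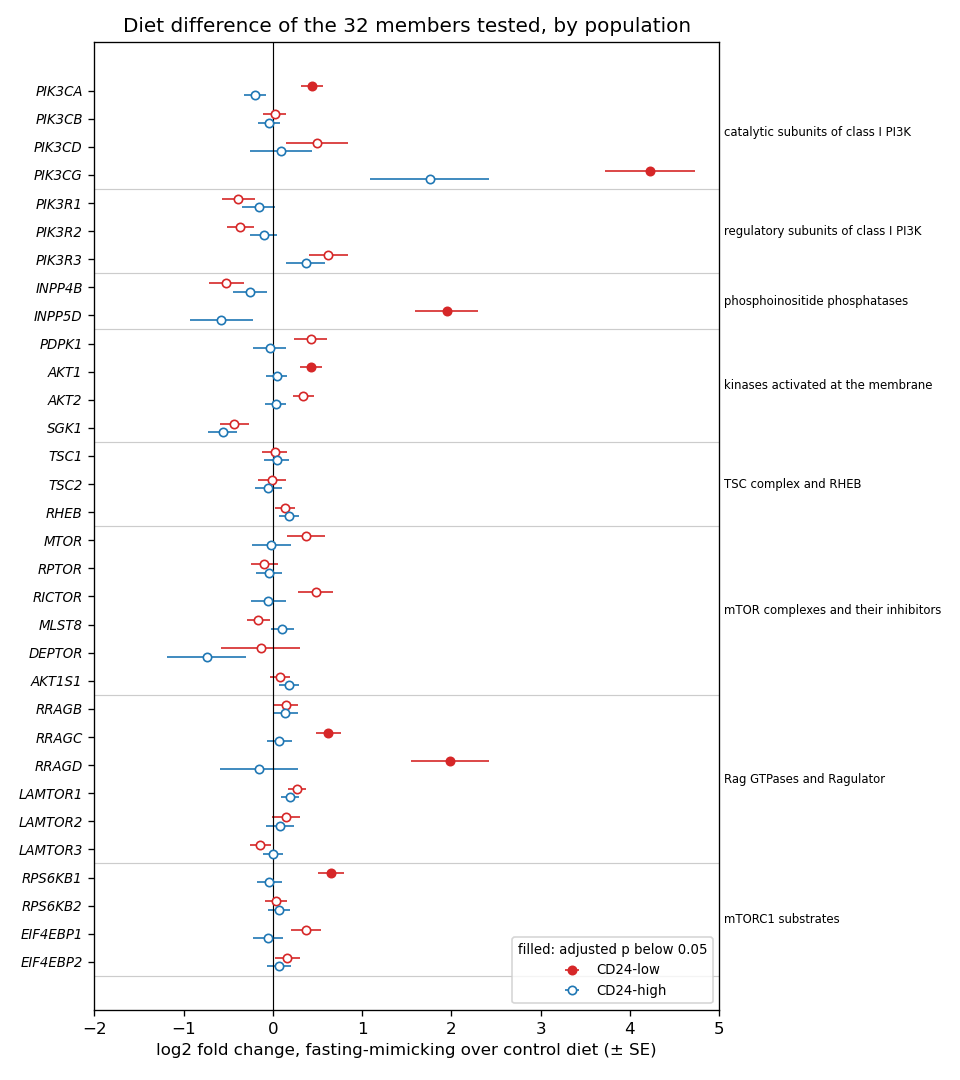
Log2 difference between diets with its SE for the 32 members tested, in CD24-low (red) and CD24-high (blue) cells, ordered by role; filled points have an adjusted p below 0.05. The 7 filled points are all CD24-low and lie above 0, from 0.42 for AKT1 to 4.23 for PIK3CG, and no CD24-high point is filled.

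Whether the diet difference itself differed between the fractions was tested as an interaction, the CD24-low difference minus the CD24-high one. INPP5D alone was called among the members, with 2.53 ± 0.50 (SE, log2) and adjusted p = 0.0147, where 4.07% of all genes were called in this direction, 0.0517% in the other and 4.13% in either. Its call held in all 19 alternative fits, with adjusted p up to 0.0473. The other 6 genes that rose in CD24-low cells had values above 0, 0.64 ± 0.18 for PIK3CA (adjusted p = 0.0632), 0.69 ± 0.20 for RPS6KB1 (0.0781), 2.14 ± 0.62 for RRAGD (0.0744), 0.55 ± 0.20 for RRAGC (0.173), 2.47 ± 0.93 for PIK3CG (0.199) and 0.38 ± 0.17 for AKT1 (0.309). For these 6 a difference between fractions in their response to the diet was not shown at this threshold. With replicate numbers as a block within each diet, PIK3CA (0.0192), RPS6KB1 (0.00807), RRAGC (0.0194) and RRAGD (0.00948) were called as well, 5 members in all, and that fit called 11% of all genes, 8.97% in this direction. DESeq2 called PIK3CA (0.00907), RPS6KB1 (0.0196) and RRAGD (0.0204) beside INPP5D, where it called 6.64% of the genes it tested.

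The third comparison set the fractions against each other under the fasting-mimicking diet. In FMD_HI 6 of the 32 members were lower than in FMD_LO and none was higher, where 12.2% of all genes were lower and 1.84% higher. They were PIK3CA, PIK3CG, INPP5D, RRAGC, RRAGD and RPS6KB1. These values share the FMD_LO libraries with the first comparison, so they are not separate evidence. PIK3CG passed the count filter through its FMD_LO libraries alone, so its call was close to fixed here too. The log2 differences were -3.89 ± 0.49 (SE) for PIK3CG (adjusted p = 0.000131), -2.57 ± 0.37 for INPP5D (0.000481), -1.66 ± 0.43 for RRAGD (0.0177), -0.71 ± 0.14 for RPS6KB1 (0.00396), -0.63 ± 0.14 for RRAGC (0.00691) and -0.56 ± 0.13 for PIK3CA (0.00750). At an unadjusted p below 0.05 there were 9 members, and 26.2% of all genes. AKT1 differed by -0.29 ± 0.12 and was not called (0.143). The call for RRAGD was lost without FMD_LO replicate 2 (0.112), FMD_HI replicate 1 (0.0673) or FMD_HI replicate 3 (0.0645), and at equal depth (0.0677), and those for the other 5 held in all 20 alternative fits.

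In this diet same-numbered libraries of the 2 fractions deviated together, and with the replicate block within each diet 11 members were called. The additions were AKT1 (-0.30 ± 0.08 SE, log2, adjusted p = 0.0169) and DEPTOR (-0.99 ± 0.27, 0.0194), lower in FMD_HI. PIK3R2 (0.40 ± 0.09, 0.00631), INPP4B (0.42 ± 0.11, 0.0113) and RPTOR (0.28 ± 0.08, 0.0264) were higher in FMD_HI. Over all genes that fit called 4201, or 27.2%, against 2163 without the block.

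The fourth comparison, CTR_HI against CTR_LO, asked whether the fractions differed on the standard diet. No member was called, and none reached an unadjusted p below 0.05, where 0.589% of all genes did. No gene was called by edgeR (0.0%) or by DESeq2. The member differences had a median of 0.03, and their 25th and 75th percentiles were -0.03 and 0.14. PIK3CG had the value farthest from 0, -1.42 ± 0.68 (SE, log2), on 7, 7 and 8 counts in CTR_LO and 1, 5 and 1 in CTR_HI.

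Genes around the members were read from a list of 72 further pathway genes, of which 70 were tested. Between diets in CD24-low cells 9 rose and 5 fell, where 12% of all genes tested rose and 4.33% fell, and their median was 0.08. PIK3R5, the p101 regulatory subunit of the gamma kinase PIK3CG, read 6.29, 4.30 and 4.18 CPM in FMD_LO and 0.0207, 0.302 and 0.119 in CTR_LO, with adjusted p = 5.55e-05. Like PIK3CG it passed the count filter through its FMD_LO libraries alone, with 1, 9 and 4 counts in CTR_LO, so its call was close to fixed. The adaptor GAB2, which docks PI3K to receptors, rose 3.73-fold (adjusted p = 0.00160). Of the 11 PI3K relatives and adaptors tested, 3 rose and 1 fell, and the other 2 were named after their values were seen. PIK3AP1, a B-cell adaptor for PI3K, read 65.2, 47.2 and 36.1 CPM in FMD_LO and 0.249, 2.59 and 0.267 in CTR_LO (adjusted p = 0.00165). PIK3IP1, an inhibitor of the catalytic subunit, fell by 0.41 on the log2 scale (SE 0.13, adjusted p = 0.0493), a call lost without any 1 of 10 of the libraries and in 3 other settings, and the largest adjusted p was 0.214, with FMD_LO replicate 2 left out. The rises of PIK3R5, GAB2 and PIK3AP1 stood beside the higher leukocyte, fibroblast and endothelial marker sums of FMD_LO, whose part was not tested.

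On the nutrient arm, 3 of 7 Rag and Ragulator partners rose and none fell, where 12% of all genes tested rose and 4.33% fell. Whether lists this short depart from those shares was not tested. Among the 3 were FNIP1, a folliculin partner in the complex that acts on RRAGC and RRAGD, and RRAGA. FNIP1 read 64.8, 60.2 and 42.2 CPM in FMD_LO and 16.2, 20.3 and 16.5 in CTR_LO, a 3.15-fold rise with adjusted p = 3.69e-05. RRAGA read 42.9, 48 and 57.1 CPM against 23.3, 25 and 21.7 (adjusted p = 0.000762). The third was FLCN, folliculin itself, named after its values were seen, with 0.64 ± 0.19 (SE, log2, 0.0383), and its call was lost without any of the CTR_LO libraries or FMD_LO replicate 1 or 2, with adjusted p up to 0.132. DEPDC5, a subunit of the GATOR1 complex that inactivates RRAGA and RRAGB, rose by 0.78 ± 0.17 (SE, log2, adjusted p = 0.00723), as 1 of the 6 genes of GATOR1 and KICSTOR. SEH1L, of the opposing GATOR2 complex, rose by 0.46 ± 0.11 (0.0107), as 1 of 5, and its call was lost without CTR_LO replicate 1 (0.0688) or FMD_LO replicate 2 (0.0618).

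Of 7 amino acid and stress sensors 2 fell and none rose, where 4.33% of all genes tested fell and 12% rose. Of the 7 differences 4 lay above 0, with a median of 0.07. SESN2 missed the threshold (adjusted p = 0.0634) and was called higher by DESeq2 (0.0319) and in 4 other alternatives. SESN3, a sestrin that restrains mTOR complex 1, read 144, 136 and 131 CPM in FMD_LO and 270, 229 and 258 in CTR_LO, and it fell by 0.88 on the log2 scale (SE 0.15, adjusted p = 0.00150). CASTOR1, the arginine sensor, fell by 0.62 (SE 0.17, 0.0216). Its call was lost when CTR_LO replicate 1, CTR_LO replicate 3 or FMD_LO replicate 2 was left out, and in a fit of the compared groups alone, with adjusted p up to 0.111.

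Of 6 AKT substrates and kinase regulators 1 rose and 1 fell, where 12% of all genes tested rose and 4.33% fell. GSK3A, the glycogen synthase kinase that AKT inhibits, read 114, 118 and 97.2 CPM in FMD_LO and 53.5, 60.2 and 53.8 in CTR_LO, a 1.97-fold rise with adjusted p = 0.000169. TBC1D4, the AKT substrate that governs glucose transporter traffic, fell by 0.54 (SE 0.17, log2, 0.0413), and its call was lost without CTR_LO replicate 1 or 2, FMD_LO replicate 2 or 3 or FMD_HI replicate 1, at equal depth (0.0536) and in a fit of the compared groups alone (0.0511), with adjusted p up to 0.153. PDCD4, a translation inhibitor degraded after S6 kinase signalling, was the single one of 15 mTOR complex 1 substrates and effectors to be called, and it fell by 0.51 (SE 0.14, 0.0220). That call was lost without CTR_LO replicate 2 or 3 or FMD_LO replicate 1 or 2, with adjusted p up to 0.0994. No gene was called among the 5 lipid and AKT phosphatases, the 6 mTOR complex partners or the 2 partners of TSC and RHEB.

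In the other comparisons none of the 70 was called between diets in CD24-high cells, 11 were lower and 2 higher in FMD_HI than in FMD_LO, where 12.2% and 1.84% of all genes were, and none was called between the control fractions. In the interaction 4 of the 70 were called, where 4.13% of all genes were, all with the larger rise in CD24-low cells. They were PIK3R5, GSK3A, RRAGA and FNIP1. Of these, PIK3R5 passed the count filter through its FMD_LO libraries alone, which favoured its call.

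Levels per kilobase in CTR_LO placed LAMTOR2 (45.1 ± 3.05 CPM per kilobase, SD, n = 3), EIF4EBP1 (41.9 ± 3.83), AKT1 (35.4 ± 2.65), SGK1 (35.1 ± 5.30) and PIK3R2 (33.6 ± 1.69) highest among the members. The libraries of LAMTOR2 and EIF4EBP1 overlapped, as did those of AKT1, SGK1 and PIK3R2, and EIF4EBP1 lay above AKT1 in every CTR_LO library. The tested members with the lowest levels were PIK3CG (0.0373 ± 0.00954 CPM per kilobase), RRAGD (0.112 ± 0.0513), INPP5D (1.06 ± 0.554) and DEPTOR (1.46 ± 0.779). The first 3 of these were also the members with the largest fold changes in FMD_LO. Outside FMD_LO, the highest of 9 libraries was 1.21 times the lowest for RPS6KB2 and 1.25 times for AKT2, RRAGC and LAMTOR3, against 3.59 times for INPP5D, 4.83 times for DEPTOR and, on few counts, 15.4 times for PIK3CG.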

How the data were processed

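RNA of 12 sorted SUM159 samples was sequenced as stranded, polyadenylated libraries, per the labels' protocols. The deposited values are raw gene counts per library, which the authors made with STAR on hg38, per the submitters' processing notes; its version, the gene annotation and whether mouse reads were removed first are not given in the sources used here. Of the 3 deposited columns, that of the reverse strand was used, since the opposite strand held 1.59% to 1.75% of reads. No sample column was left out. Totals were 17736610 to 47587142 counts. Over genes with enough counts, replicate variance was a median of 5.50 to 10.1 times counting noise. Samples more than counting thus limited the precision of a typical gene, which does not extend to genes on few counts, such as PIK3CG and RRAGD.

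All 12 libraries entered 1 edgeR model (version 4.0.16, R 4.3.3) with a mean for each group, TMM normalisation, robust quasi-likelihood dispersions and 8 residual degrees of freedom, on the 15461 genes that filterByExpr kept. A gene is said to have passed through FMD_LO alone where under 3 of the other 9 libraries reached the level of that filter. The p-values were adjusted by Benjamini-Hochberg over all genes tested; a call is an adjusted p below 0.05. The fit was tested on simulated data. CPM uses the effective library size, and values per kilobase the exon union of GENCODE 29. Alternatives were DESeq2 1.42.0, other scaling, filter, strand and depth, a fit of the compared groups only, a replicate block, and leaving out each library. Same-numbered libraries correlated in their deviations from the group mean at 0.444, 0.285 and 0.485 between FMD_LO and FMD_HI, which pairs them by the data, at 0.445, 0.522 and 0.037 between CTR_LO and CTR_HI, and at most 0.082 between diets; a block within each diet was therefore added after seeing the data.

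The members, lists and markers were chosen with earlier results of these data known. Every member is accounted for, called members with all their values, and of each further list up to 2 called genes with the smallest p between diets in CD24-low cells are named, plus those called in the interaction. SGK3 failed the count filter, as did PIK3R6 and EIF4EBP3 of the further lists. CASTOR1 and CASTOR2 were matched by older symbols. Proteins were not used here.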

Additional observations from a re-analysis of the deposited data

Results flagged for a closer look

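In INPP5D the diet difference itself differed between the fractions in the interaction test of edgeR, by 2.53 on the log2 scale (adjusted p = 0.0147). It was the only member called of 32 tested, where 4.13% of all genes were called. All 3 of its FMD_LO libraries lay above all other 9, as in 13.1% of all genes. The same test called 4 of the 70 genes tested from the further pathway lists, near the share of all genes. PIK3R5 differed by 4.30 (adjusted p = 0.0158), which was lost at equal depth (0.0911) and without CTR_HI replicate 2 (0.0597). Its CTR_LO libraries held 1, 9 and 4 counts. PIK3R5 passed the count filter through its FMD_LO libraries alone, which favoured this call. FNIP1 differed by 1.41 (0.00543), RRAGA by 1.19 (0.0133) and GSK3A by 0.86 (0.0147), and these 3 stayed called in all 19 alternatives. All 5 were high in FMD_LO, the group in which the leukocyte marker sum was 764 to 804 CPM. The fibroblast sum, 47100 to 69700 CPM, and the endothelial sum, 49.3 to 102 CPM, were also highest in that group. The part of other cells was not tested.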

How the results depend on the processing

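No member changed direction in a comparison in which it was called. Between diets in CD24-low cells 5 to 8 members and 1562 to 2795 of all genes were called when 1 library was left out, and 5 to 10 members and 2244 to 3013 genes under the other settings, against 7 and 2533 in the reported fit. Between the fractions under the fasting-mimicking diet the ranges without 1 library were 5 to 6 members and 1504 to 2318 genes, and the replicate block within each diet gave 11 members and 4201 genes. For the interaction they were 1 to 2 members and 380 to 767 genes; DESeq2's size factors gave 2 members, the replicate block over all libraries 2, the block within each diet 5 members and 1702 genes, and DESeq2 4 members and 1135 genes. Between diets in CD24-high cells no member was called under any setting, and of all genes 0 to 1 without 1 library, 1 without a count filter, 1 with the replicate block and 74 with DESeq2. Between the control fractions 0 members and 0 genes were called under every setting run. The causes of these differences were not tested. Of the 7 members called between diets in CD24-low cells, PIK3CG and RRAGD had the largest SE and the fewest counts, 7 to 8 and 14 to 25 in each CTR_LO library.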
